A study of Mus musculus with 11 samples.

Results

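The xenobiotic-metabolising enzymes of mouse colon are described here across the mice of a study of neuregulin-4 loss. They were taken by symbol as cytochromes P450 of families Cyp1 to Cyp4, UDP-glucuronosyltransferases Ugt1a and Ugt2b, cytosolic and kappa glutathione S-transferases, sulfotransferases Sult1 to Sult6 and carboxylesterases Ces1 and Ces2. The receptors Nr1i2 and Ahr and the efflux pump Abcb1a were added to them. The table lists 161 such genes among 22243 in all. Of these, 68 reached at least 1 TPM (a transcript's abundance scaled for its length and for the total of the library) in at least 5 mice and are the described members, chosen by that level alone. The families were picked with values of these mice in view. They comprised 24 Cyp, 20 Gst, 10 Ces, 6 Sult and 5 Ugt genes and the 3 added genes. The same filter left 10756 genes in the whole table.

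Polyadenylated RNA of full-thickness distal colon was sequenced from 5 Nrg4-/- mice (KO) and 6 wild-type mice (WT). All animals were 11 to 12 weeks old, both sexes were used, and genotypes had been mixed in shared cages from week 9. Cage A held 2 KO and 2 WT mice, cage B held 2 KO and 2 WT mice, and cage C held 1 KO mouse and 2 WT mice. Each mouse is 1 library and is named by genotype and mouse number (KO-1, WT-2).

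Enzymes of this kind act on drugs, plant compounds, bile acids, steroids and fatty acids. Cytochromes P450 and carboxylesterases oxidise or hydrolyse the substrate, and UDP-glucuronosyltransferases, sulfotransferases and glutathione S-transferases then join it to glucuronic acid, sulfate or glutathione. Pumps such as P-glycoprotein move foreign compounds out of the cell. The pregnane X receptor (Nr1i2) and the aryl hydrocarbon receptor (Ahr) bind foreign compounds and switch many of these genes on. In gut the enzymes are found mostly in the absorptive epithelium.

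The tissue carried the markers of colonic epithelium. Of 15 colonocyte markers, 13 passed the filter (Ceacam1 was at 0 in every mouse), and their summed level was 20370 to 25990 TPM in KO and 18570 to 27980 TPM in WT mice. Liver is rich in many of these enzymes. Alb stood at 0.449 to 1.73 TPM, and 1 of 6 liver markers passed the filter, Ttr at 68.7 to 98.2 TPM. None of 7 squamous markers passed it. Of 7 small intestine markers 2 did, among them Fabp6 at 16.7 to 64.5 TPM. Nrg4 was listed at 0 TPM in every mouse, so it gave no check of the genotype labels. Mitochondrially encoded genes took 19.0 to 24.7% of the summed TPM in cage A, 23.0 to 29.8% in cage B and 22.3 to 42.9% in cage C. The 4 Y-linked genes of the table, summed, stood at 32.4 to 41.7 TPM in cage A and at no more than 0.236 TPM in any other mouse. The labels give no sex per mouse, and a difference of cage A and a difference of sex cannot be told apart.

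Levels are given first, as the mean TPM over the 11 mice. Among the sensors and the pump, Nr1i2 averaged 25.96 TPM and Ahr 3.04 TPM, and Abcb1a, which encodes P-glycoprotein, averaged 97.3 TPM. Nr1i2 had 26.2, 29.9, 32.65, 15.6 and 31.55 TPM in KO-1, KO-3, KO-4, KO-8 and KO-9, and WT mice ranged over 18.6 to 29.4 TPM with a median of 25.3 TPM. KO-8 was the lowest mouse, and the genotypes overlapped. Ahr had 3.38, 4.11, 2.99, 3.36 and 2.15 TPM in KO-1, KO-3, KO-4, KO-8 and KO-9, and 2.47 to 3.5 TPM in WT mice, with a median of 2.88 TPM. Its highest and lowest values were both KO mice. Abcb1a had 77.0, 96.4, 132, 65.3 and 54.1 TPM in the KO mice in the same order, and 66.6 to 164 TPM in WT mice, with a median of 92.0 TPM. Abcb1a spread over a ratio of 3.04 between its highest and lowest mouse, against 2.10 for Nr1i2 and 1.92 for Ahr.

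The best-known target gene of the aryl hydrocarbon receptor, Cyp1a1, was close to absent. It was listed at 0.138, 0, 0.0354, 0.0919 and 0 TPM in KO-1, KO-3, KO-4, KO-8 and KO-9, and between 0 and 0.0868 TPM in WT mice, with a median of 0.0337 TPM. Cyp1a2 was listed at 0 TPM in all 11 mice and Cyp1b1 did not exceed 0.119 TPM. Cyp1a1 lies 2.47 Mb from Nrg4 on chromosome 9 and Cyp1a2 2.46 Mb from it. They were the only members within 10 Mb of Nrg4, so no described member lies that close to the targeted gene. The pregnane X receptor target Cyp3a11, high in mouse liver, and the constitutive androstane receptor target Cyp2b10 did not exceed 0.186 and 0.428 TPM.

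Among the 24 described P450 genes, a few carried most of the signal. Cyp2c55, an enzyme of arachidonic and linoleic acid oxidation, was the highest at 263 TPM. It had 286, 253, 360.0, 325 and 246 TPM in KO-1, KO-3, KO-4, KO-8 and KO-9, and 156 to 276 TPM in WT mice, with a median of 248 TPM. Cyp2d34 followed at 138 TPM. It belongs to the Cyp2d group, which in human is represented by the drug-oxidising CYP2D6. It had 116.5, 177, 164, 70.7 and 198 TPM in the KO mice in the same order, and 96.15 to 175 TPM in WT mice, with a median of 132 TPM. For both genes the genotypes overlapped.

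The other Cyp2c genes averaged 117 TPM for Cyp2c68, 4.15 TPM for Cyp2c69, 2.78 TPM for Cyp2c65 and 1.31 TPM for Cyp2c23. In the Cyp2d group Cyp2d12 averaged 51.5, Cyp2d10 40.9, Cyp2d9 28.8, Cyp2d22 11.1, Cyp2d26 10.3 and Cyp2d40 3.29 TPM. Cyp3a13, the intestinal member of the CYP3A subfamily, averaged 56.6 TPM and was the only Cyp3a gene described. Cyp2s1, an extrahepatic epithelial P450, averaged 39.2 TPM, Cyp2f2, which activates naphthalene in mouse airway, 17.4 TPM, Cyp2j6 14.5 TPM, Cyp2w1 1.70 TPM and Cyp2j9 1.59 TPM. The Cyp4f genes, whose products hydroxylate fatty acids and leukotriene B4 at their end carbon, ranged downward through Cyp4f16 at 35.4, Cyp4f14 at 19.6, Cyp4f13 at 17.6, Cyp4f40 at 14.6 and Cyp4f17 at 1.18 TPM. Cyp4v3, another fatty acid hydroxylase, averaged 6.55 TPM.

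Carboxylesterases hydrolyse ester and amide bonds of drugs and lipids. Ces2c averaged 272 TPM, with 202, 366, 317, 206 and 313 TPM in KO-1, KO-3, KO-4, KO-8 and KO-9, and 207.5 to 368 TPM in WT mice, with a median of 251 TPM. Ces2a averaged 132 TPM, with 108, 152, 167, 100.4 and 149.6 TPM in the KO mice in the same order, and 108 to 164 TPM in WT mice, with a median of 119 TPM. In both, KO-1 and KO-8 were the lowest KO mice, and both mice were housed in cage A. The other Ces2 genes averaged 57.5 TPM for Ces2e, 15.7 TPM for Ces2g and 2.85 TPM for Ces2b. The Ces1 genes were lower, with means of 19.1 TPM for Ces1f, 15.3 TPM for Ces1d, 5.50 TPM for Ces1e, 3.25 TPM for Ces1g and 1.94 TPM for Ces1b.

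The conjugating enzymes were led by glutathione S-transferases. Gsto1, an omega-class enzyme that reduces dehydroascorbate, had the highest mean of all members at 471 TPM. It had 361, 437, 473, 501.5 and 438 TPM in KO-1, KO-3, KO-4, KO-8 and KO-9, and 453 to 547 TPM in WT mice, with a median of 503 TPM. Gstm1, of the mu class that conjugates epoxides, had 282, 318, 359.6, 303 and 319 TPM in the KO mice in the same order, and 252 to 378 TPM in WT mice, with a median of 310.2 TPM. Both were among the even members, with ratios of highest to lowest mouse of 1.51 and 1.502. The rest of the mu class averaged 109 TPM for Gstm2, 49.2 for Gstm3, 41.8 for Gstm5, 24.4 for Gstm6, 12.5 for Gstm7 and 5.61 for Gstm4. The pi class averaged 297 TPM for Gstp1, 91.8 for Gstp2 and 8.94 for Gstp3. The alpha class, which reduces lipid hydroperoxides and whose member Gsta4 conjugates the lipid aldehyde 4-hydroxynonenal, averaged 65.0 TPM for Gsta1, 57.3 for Gsta4 and 39.9 for Gsta3. The theta class averaged 44.0 TPM for Gstt1, 42.1 for Gstt3 and 15.8 for Gstt2. Gstk1, a kappa enzyme of mitochondria and peroxisomes, averaged 41.6 TPM, Gstz1, which also acts in tyrosine breakdown, 23.3 TPM and Gsto2 1.06 TPM.

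Among the sulfotransferases, Sult1a1, which sulfates simple phenols, averaged 288 TPM and Sult1b1, which acts on phenols and thyroid hormones, 229 TPM. Sult1a1 had 241, 351, 288, 316 and 336 TPM in KO-1, KO-3, KO-4, KO-8 and KO-9, and 192 to 357 TPM in WT mice, with a median of 255 TPM. Its genotypes overlapped over nearly their whole range. Sult1d1, a catecholamine sulfotransferase, averaged 79.2 TPM, the cholesterol sulfotransferase Sult2b1 43.5 TPM, Sult1c2 28.6 TPM and Sult4a1 2.85 TPM. Among the glucuronosyltransferases, Ugt2b34 averaged 159.5 TPM, with 138, 169, 179, 141 and 159 TPM in the KO mice in the same order, and 138 to 188 TPM in WT mice, with a median of 162 TPM. Ugt1a7c averaged 55.3 TPM, with 59.35, 52.8, 59.1, 73.7 and 39.1 TPM in the KO mice and 38.5 to 66.02 TPM in WT mice, with a median of 55.3 TPM. Ugt1a6a, which conjugates planar phenols, averaged 30.1 TPM, Ugt1a1, the bilirubin glucuronosyltransferase, 25.8 TPM and Ugt2b35 12.9 TPM.

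Summed over the 65 enzyme genes, the level was 3554 to 4601 TPM in KO and 3687 to 4651 TPM in WT mice. By cage the sum was 3554 to 3865 TPM in cage A, 3866 to 4601 TPM in cage B and 4160 to 4651 TPM in cage C, so the highest mouse of cage A lay next to the lowest of cage B, WT-2. As a share of the summed TPM of a mouse, which ranged over 558446 to 770986 TPM, the cages overlapped, with 0.609 to 0.649% in cage A, 0.592 to 0.716% in cage B and 0.546 to 0.680% in cage C. As a share of the summed TPM of nuclear genes alone cage A lay below both other cages, which overlapped each other, with 0.767 to 0.810% in cage A, 0.824 to 0.986% in cage B and 0.876 to 0.956% in cage C. Both shares were chosen after the sums were seen.

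**Figure D1:**
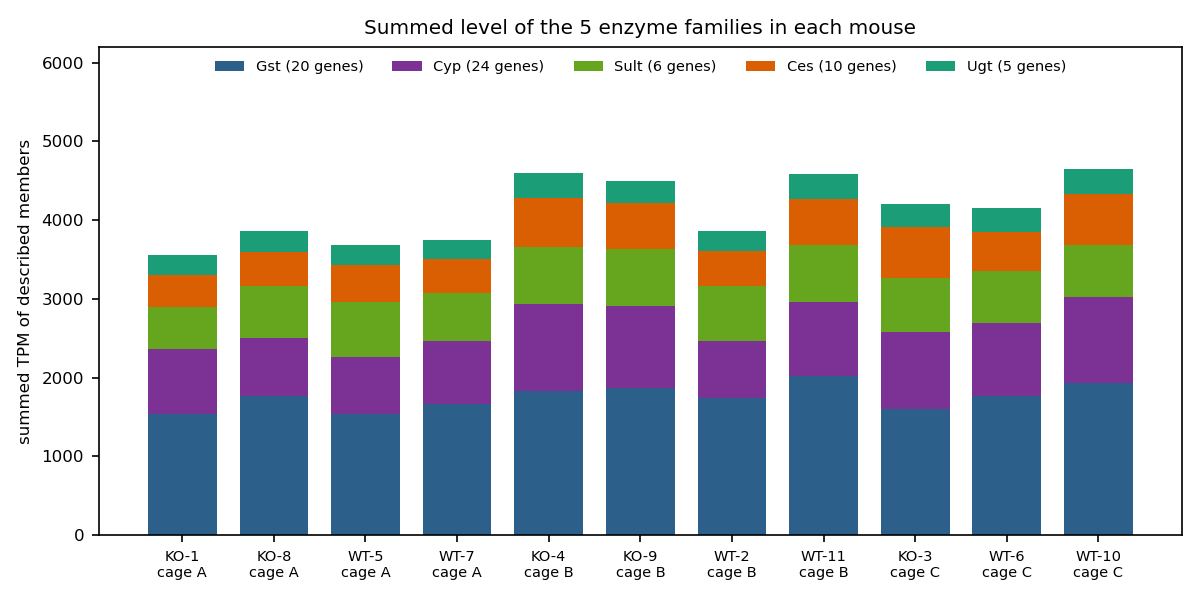
Summed TPM (vertical axis) of the 65 described enzyme genes in each of the 11 mice, stacked by family and ordered by cage. The 4 mice of cage A sit at 3554 to 3865 TPM and the 7 mice of cages B and C at 3866 to 4651 TPM.

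The 93 members that were not described included 38 listed at 0 TPM in all mice and 85 that never reached 1 TPM. The other 8 reached it in 1 to 4 mice, namely Cyp4f18 in 4, Ugt1a6b in 3, Cyp2e1 and Cyp2r1 in 2 each, and Ces1c, Cyp4b1, Sult5a1 and Ugt1a10 in 1 each. Of the 68 described, 64 were at 1 TPM or more in all 11 mice. The 4 others were Cyp2w1 in 9 mice, Cyp4f17 in 8, Cyp2c23 in 7 and Gsto2 in 6. Just inside the threshold, Gsto2 had 0.267 to 1.27 TPM in KO and 0.542 to 2.15 TPM in WT mice, and just outside it Cyp4f18 had 0.228 to 1.34 TPM in KO and 0.0700 to 2.61 TPM in WT mice.

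Many of these genes are close copies of each other, and single-end reads of 75 nt can then match more than 1 gene. Of all 75-nt windows in a member's principal transcripts, the share found letter for letter in another gene was under 5% for 46 of the 68 members, with a median of 0.252%. It was over 50% for 5 members. Ugt1a6a reached 97.8%, mostly with Ugt1a7c, and Ugt1a1 reached 57.7%. The genes of the Ugt1a locus have their last exons in common. Ugt1a7c itself stood at 40.0%, and why the share of Ugt1a6a was so much larger was not tested. Gsta1 reached 86.3%, mostly with the gene model Gm3776, and Gstp2 and Gstp1 reached 68.2 and 57.7%, mostly with each other. Levels of these 5 genes depend on how ambiguous reads were divided. In the Cyp2d group the share was 26.7% for Cyp2d10 and 16.7% for Cyp2d9, and for Ces2c it was 25.95%, mostly with the pseudogene Ces2d-ps.

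**Figure D2:**
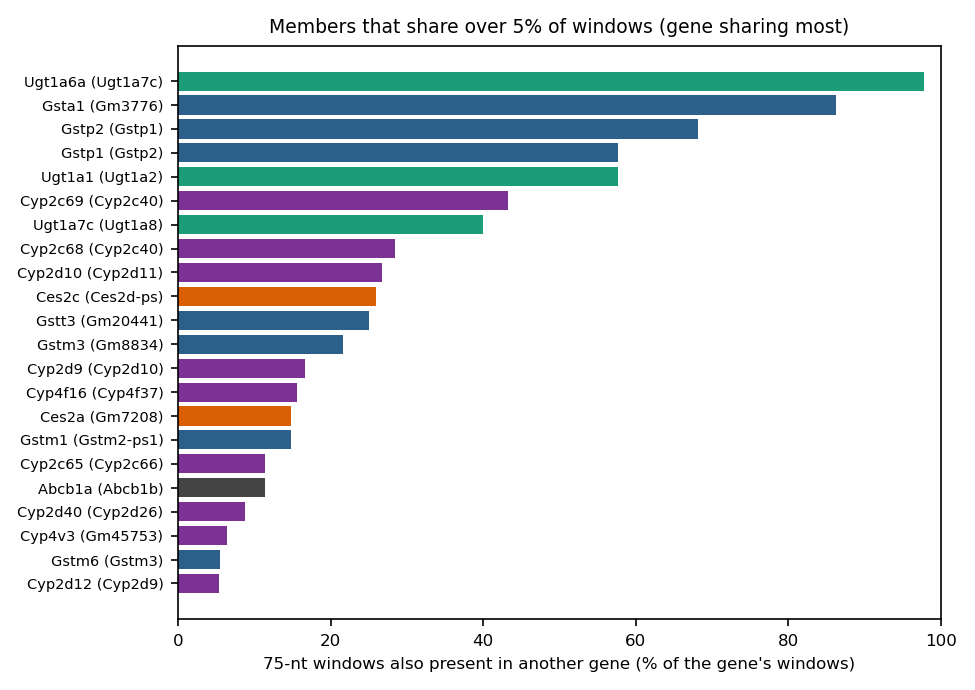
Share of a gene's 75-nt windows that also occur in another gene (horizontal axis, percent) for the 22 described members above 5%, with the gene sharing most in brackets. Ugt1a6a stands at 97.8% and Gsta1 at 86.3%.

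The first comparison asked whether loss of Nrg4 went with different levels of these enzymes. None of the 68 members differed between KO and WT mice at an adjusted p of 0.05 (limma over 10756 genes, with cage in the model), against a background of 0.0372% of all genes tested (0.0279% lower in KO). None had an unadjusted p under 0.05 either, where 3.1% of all genes did (1.06% higher and 2.04% lower in KO), and the smallest adjusted p of a member was 0.9999. On the log2 scale 40 members had positive and 28 negative differences, with a median of 0.02, against -0.01 over all genes tested. No member had every KO mouse on a single side of every WT mouse, where 0.112% of all genes had KO below and 0.112% KO above. The 95% interval of the difference lay within 1 log2 unit of 0 for 65 of 68 members and within 0.5 log2 units for 39, with a median standard error of 0.164. The exceptions to the wider limit were Gsta1, Gsto2 and Ugt1a1.

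The 6 members with the smallest p each overlapped between the genotypes. Sult1b1 had 169, 206.5, 251, 205 and 213 TPM in KO-1, KO-3, KO-4, KO-8 and KO-9, and 201 to 291 TPM in WT mice, with a median of 244 TPM. The KO mice averaged 209 ± 29.0 TPM and the WT mice 246 ± 37.4 TPM (SD, n = 5 and 6), and KO-4 lay above the WT median. Its log2 difference, KO against WT, was -0.21 ± 0.10 (standard error), with a 95% interval of -0.44 to 0.01. Cyp2c55 averaged 294 ± 48.5 TPM in KO and 237 ± 44.2 TPM in WT mice, with a log2 difference of 0.32 ± 0.15 and a 95% interval of -0.03 to 0.66. Its difference was 0.21 among the mice of cage A, 0.62 among those of cage B and 0.03 among those of cage C, where KO-3 is the only KO mouse.

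Gstm3 had 50.8, 48.8, 61.8, 50.1 and 56.1 TPM in KO-1, KO-3, KO-4, KO-8 and KO-9, and 37.1 to 57.3 TPM in WT mice, with a median of 45.5 TPM. All KO values exceeded the WT median, and the log2 difference was 0.21 ± 0.11 (95% interval -0.02 to 0.45). Gstt1, which acts on small halogenated compounds, had 47.1, 37.1, 47.3, 49.25 and 60.96 TPM in the KO mice in the same order, and 34.65 to 44.75 TPM in WT mice, with a median of 40.7 TPM. KO-3 lay inside the WT range and the other KO mice above it, and the log2 difference was 0.22 ± 0.12 (95% interval -0.04 to 0.48). Cyp4f40 had 17.96, 11.4, 16.7, 18.7 and 15.8 TPM in the KO mice and 10.7 to 16.1 TPM in WT mice, with a median of 13.6 TPM. Again KO-3 was the lowest KO mouse, and the log2 difference was 0.21 ± 0.11 (95% interval -0.04 to 0.47).

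Gsta1 had the widest interval. It had 29.8, 30.8, 56.8, 46.0 and 40.2 TPM in KO-1, KO-3, KO-4, KO-8 and KO-9, and 20.3 to 179 TPM in WT mice, with a median of 78.3 TPM. KO mice lay in a narrow band inside the WT range, whose lowest value was WT-5 in cage A and whose highest was WT-10 in cage C. The log2 difference was -0.77, with a 95% interval of -1.64 to 0.10. It was 0.12 among the mice of cage A, -0.99 among those of cage B and -1.80 among those of cage C. Without KO-3, the only KO mouse of cage C, a genotype difference rests on cages A and B alone. For Gsta1 it was then -0.43. With a mouse left out, the difference also shrank by over 1.5 times for Sult1b1 (-0.14 without KO-3), Cyp2c55 (0.19 without WT-2 and 0.20 without KO-4), Gstm3 (0.12 without WT-2) and Gstt1 (0.14 without WT-2 and 0.14 without KO-9). It grew by over 1.5 times without KO-3 for Gstt1 (0.34) and Cyp4f40 (0.33). Gsta1 and Gsta4 lie on chromosome 9 about 23.0 Mb from Nrg4, and for Gsta4 the difference was -0.21 ± 0.24.

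The number of members under an unadjusted p of 0.05 between genotypes moved with single mice. There were 8 without KO-8 (Cyp2d10, Cyp2d12, Cyp2d22, Cyp2d34 and Nr1i2 higher in KO, Gsta1, Gsto1 and Sult1b1 lower), and 6 without WT-5 (Cyp2d10 higher, Cyp4v3, Gsta1, Gsta4, Sult1c2 and Ugt1a6a lower). There were 3 without KO-3 (Cyp2c55, Cyp4f40 and Gstt1, all higher in KO), 2 without WT-2 (Gsto2 and Sult1b1, both lower), 2 without WT-11 (Gstm3 higher and Gstm4 lower), and 1 each without KO-4 (Sult1b1), KO-9 (Gsto2), WT-6 (Cyp4f40) and WT-10 (Cyp2c55). The share of all genes at such a p was 5.74% without KO-8 and 5.39% without WT-5, and 2.55 to 3.78% without any other mouse. None of the members passed the adjusted threshold in any of these fits. In the authors' deposited table, 75 of 78 member transcripts carry a p for KO against WT. Of these, 2 (2.67%) are under 0.05, against 2.24% of all transcripts with a deposited p. Both are of Sult1b1 (deposited p 0.0372 and 0.0401) and lower in KO, with log2 ratios of -0.39 and -0.24. Another transcript of Sult1b1 goes the other way, with a ratio of 0.84 (deposited p 0.250). The smallest deposited q of a member is 1.

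**Figure D3:**
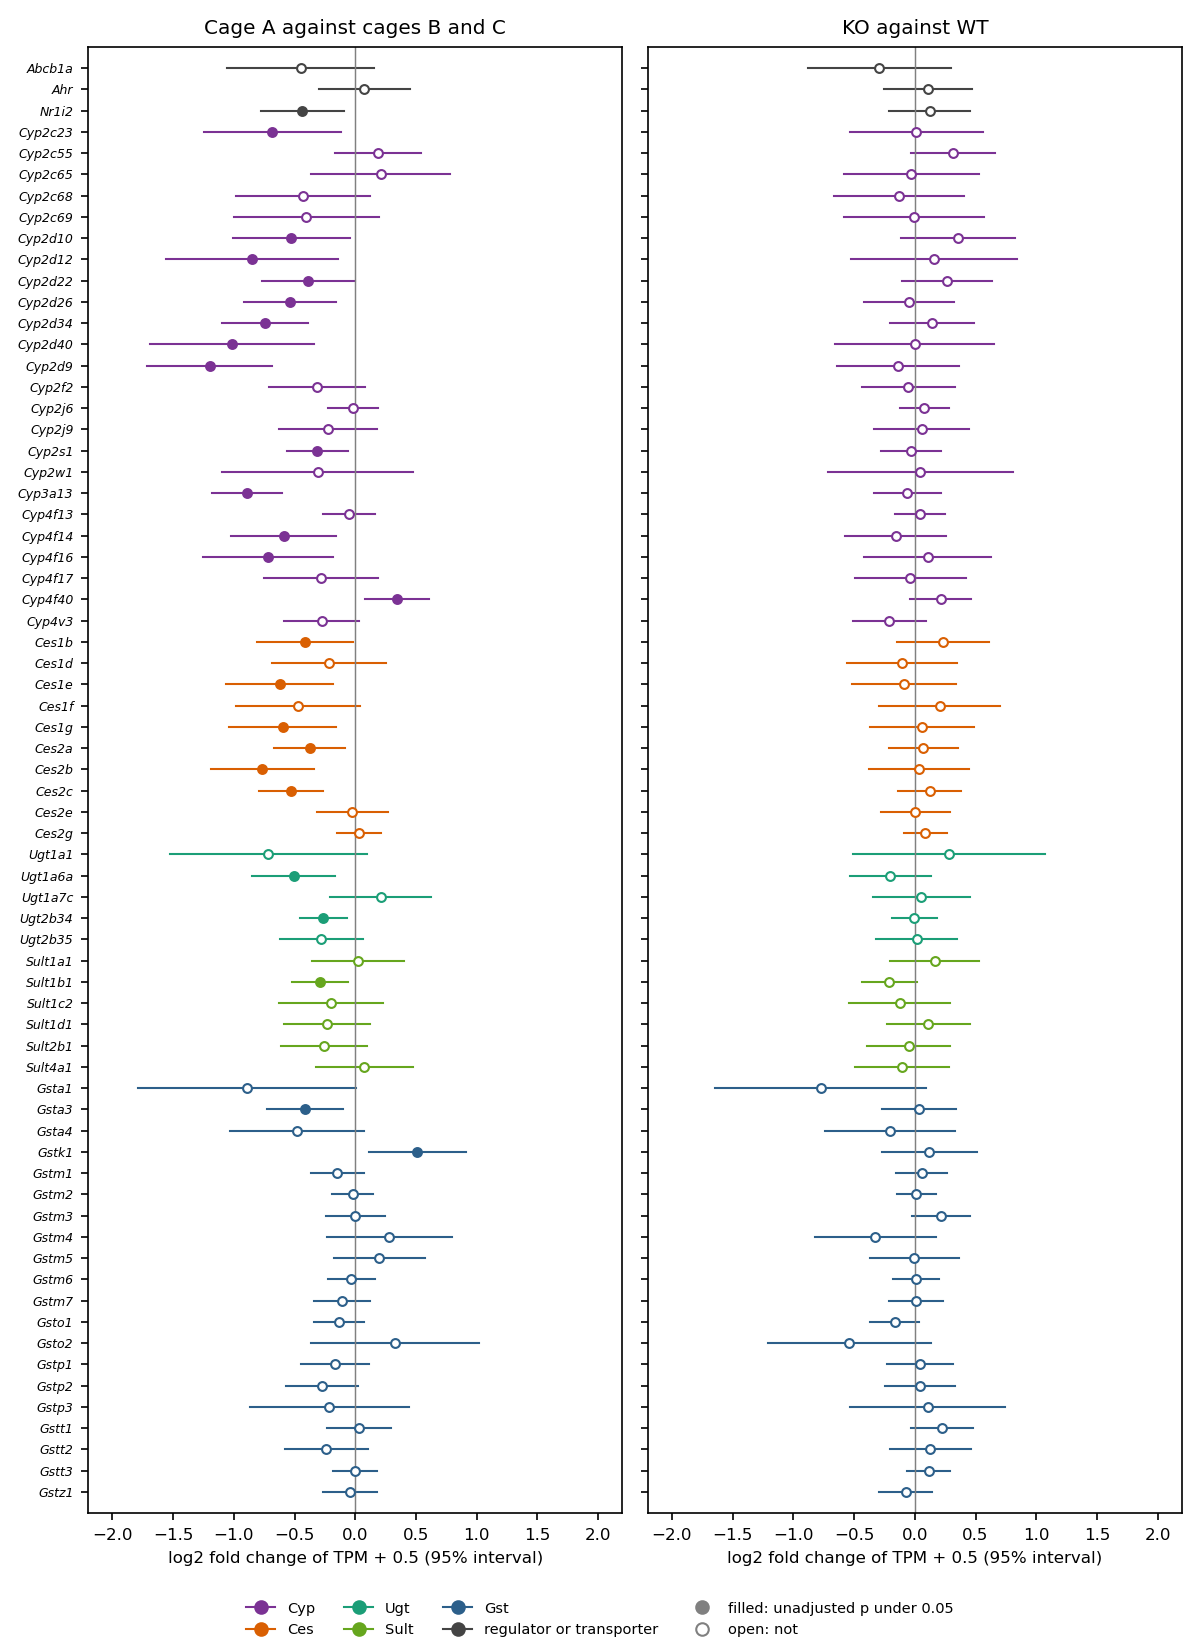
Log2 fold change of TPM + 0.5 with its 95% interval (horizontal axis) for each of the 68 members, cage A against cages B and C on the left and KO against WT on the right. Filled points have an unadjusted p under 0.05, which are 25 members on the left (23 of them negative) and none on the right.

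The second comparison concerned the spread between cages. For the median member, 30.2% of the sum of squares of log2(TPM + 0.5) lay between the 3 cage means, against 23.6% for the median of all genes tested. The share exceeded 50% in 21 of 68 members (30.9%), against 14.9% of all genes. It ran from 4.44% for Gstt3 to 85.4% for Cyp3a13. In the F test on cage none of the members passed an adjusted p of 0.05 (0% of all genes did), and 20 had an unadjusted p under 0.05, a share to be read against 12.1% of all genes (limma). The smallest adjusted limma p of a member was 0.189, for Cyp3a13. The count of 20 became 11 without KO-1, 11 without WT-10, 12 without WT-5, and 13 without KO-8, KO-9 or WT-11. The share of all genes at such a p was 12.0, 10.85, 8.31, 9.15, 9.85 and 10.3% in these fits, in the same order.

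Cage A was then set against the others. Against the mean of cages B and C, 54 of 68 members were lower in cage A, with a median log2 difference of -0.28, against 46.4% of all genes and a median of 0.03. None passed an adjusted p of 0.05 (limma; 0.0465% of all genes did, 0.0279% lower), and 25 had an unadjusted p under 0.05, against 17.4% of all genes. Of those 25, 23 were lower in cage A, where the background is 7.61%, and 2 were higher, Gstk1 and Cyp4f40, where it is 9.83%. Over all members 44 of 68 were negative in both genotypes, against 30.5% of all genes. In all 4 mice of cage A, Cyp3a13, Cyp2d9, Cyp2d34 and Cyp2s1 were below every mouse of cages B and C (background 1.66%), and no member was above them in the same way (background 2.38%).

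Cyp3a13 (chromosome 5, 137892932 to 137921619, minus strand, mm10) had the smallest p. It had 38.3, 31.9, 42.1 and 33.9 TPM in KO-1, KO-8, WT-5 and WT-7 of cage A. In cage B it had 67.5, 58.7, 67.9 and 59.3 TPM in KO-4, KO-9, WT-2 and WT-11, and in cage C 71.1, 58.9 and 92.9 TPM in KO-3, WT-6 and WT-10. The lowest mouse outside cage A thus stood well above the highest inside it, in both genotypes. The log2 difference of cage A from cages B and C was -0.89 ± 0.13, with an adjusted limma p of 0.0517, just short of the threshold. It passed with a pseudocount of 1 (adjusted p = 0.0496) and with a filter of 5 TPM (adjusted p = 0.0376), and over all the alternatives the difference was within -0.97 to -0.81. No 75-nt window of it occurs in another gene.

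**Figure D4:**
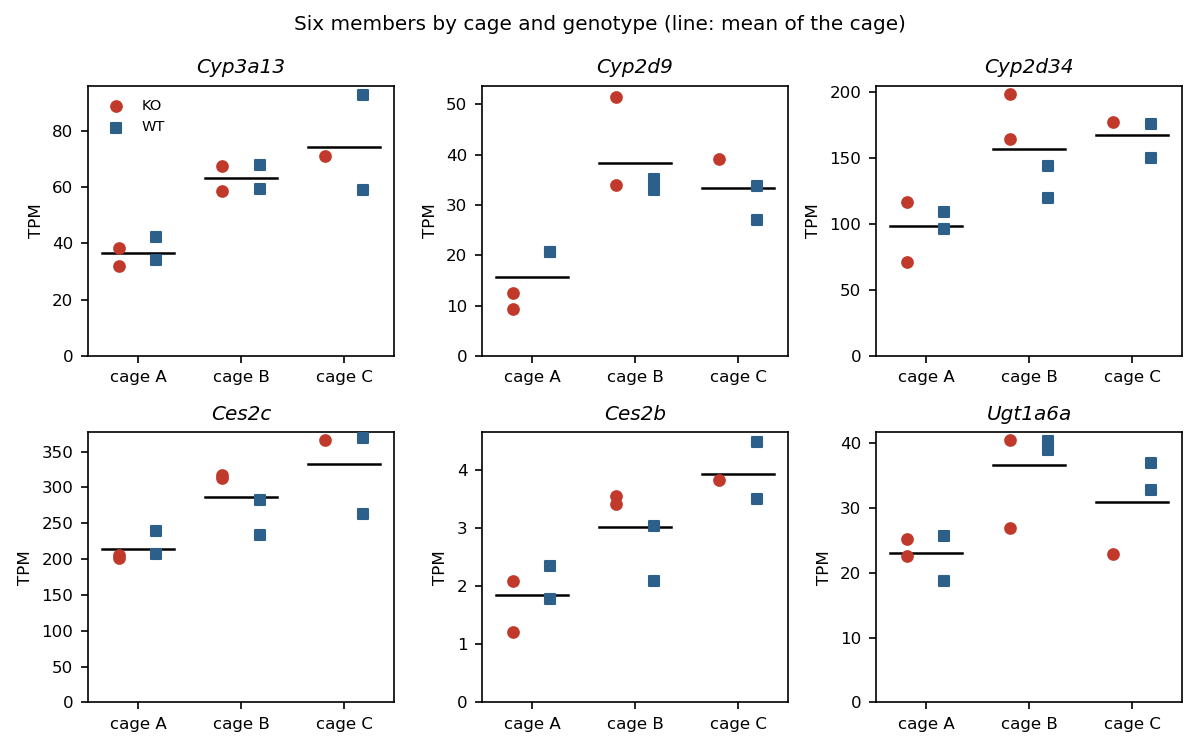
TPM (vertical axis) in each mouse of cages A, B and C for the 6 members with the smallest p in the cage test, with KO mice as circles, WT mice as squares and the cage mean as a line. In cage A Cyp3a13 lies between 31.9 and 42.1 TPM, below the 58.7 TPM of the lowest other mouse. The 2 WT points of Cyp2d9 in cage A coincide at 20.7 TPM.

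The Cyp2d genes had negative differences as a block. All 7 described members, which lie together on chromosome 15 between 82370527 and 82794294 (mm10), were lower in cage A at an unadjusted p under 0.05 (7.61% of all genes), with log2 differences of -1.20 (Cyp2d9) to -0.39 (Cyp2d22) and a median of -0.74. Cyp2d9 had 12.5, 9.29, 20.7 and 20.7 TPM in KO-1, KO-8, WT-5 and WT-7 of cage A. In cage B it had 51.55, 33.9, 32.9 and 35.2 TPM in KO-4, KO-9, WT-2 and WT-11, and in cage C 39.2, 33.8 and 27.1 TPM in KO-3, WT-6 and WT-10. KO-1 and KO-8 of cage A were the lowest of all mice and KO-4 and KO-3 the highest, and the difference of cage A was -1.86 within KO and -0.62 within WT. Cyp2d34 had 116.5, 70.7, 96.15 and 109 TPM in the mice of cage A in the same order, 164, 198, 119 and 144 TPM in those of cage B, and 177, 149.5 and 175 TPM in those of cage C. Its highest value in cage A lay just under its lowest elsewhere, that of WT-2. The adjusted limma p was 0.120 for Cyp2d9 and 0.130 for Cyp2d34. The share of windows found in other genes ran from 2.30% for Cyp2d22 to 26.7% for Cyp2d10 in this group. For Cyp2d10 most of it was with Cyp2d11, which is not a described member. Whether the 7 genes are independent measurements was not tested.

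Since the Cyp2d genes lie in a cluster and were all lower in cage A at that p, the promoters of the 4 of them matched in RefSeq are shown to compare what they have in common. Cyp2d12, Cyp2d22 and Cyp2d34 were not matched. The stretches are the 120 bases before the annotated start of each gene, 5′ to 3′ on its own strand, from RefSeq on GRCm38.p6. Capitals mark CAAAGNGCA, close to the letters bound by the liver and gut factor HNF4A, and the TATA-type run TTTATAAGG. Both were chosen after the sequences were seen, and both strands were searched.
Cyp2d9 (chr15:82452257-82452376, plus strand): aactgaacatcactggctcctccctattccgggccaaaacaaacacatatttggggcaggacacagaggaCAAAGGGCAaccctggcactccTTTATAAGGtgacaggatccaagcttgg
Cyp2d10 (chr15:82407195-82407314, minus strand): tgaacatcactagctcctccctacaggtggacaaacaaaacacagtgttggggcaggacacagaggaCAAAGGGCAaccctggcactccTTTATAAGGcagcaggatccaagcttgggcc
Cyp2d26 (chr15:82794246-82794365, minus strand): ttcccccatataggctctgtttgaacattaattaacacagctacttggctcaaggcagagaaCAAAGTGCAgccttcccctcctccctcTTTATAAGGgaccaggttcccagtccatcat
Cyp2d40 (chr15:82764123-82764242, minus strand): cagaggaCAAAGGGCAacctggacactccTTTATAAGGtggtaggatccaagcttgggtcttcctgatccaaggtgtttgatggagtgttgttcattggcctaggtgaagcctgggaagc

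For contrast, the same stretch of Cyp3a13 and of Ces2c, the highest carboxylesterase, is printed below. Neither holds either motif, so the letters marked in the Cyp2d promoters were not found in the windows of all members that were lower in cage A.
Cyp3a13 (chr5:137921620-137921739, minus strand): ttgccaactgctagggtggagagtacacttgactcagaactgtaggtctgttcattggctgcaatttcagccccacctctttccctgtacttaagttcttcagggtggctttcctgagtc
Ces2c (chr8:104846948-104847067, plus strand): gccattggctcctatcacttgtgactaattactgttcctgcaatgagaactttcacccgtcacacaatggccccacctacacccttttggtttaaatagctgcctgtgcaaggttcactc

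Cyp2d9 and Cyp2d10 were 83.2% identical over their aligned stretches, and the other pairs of the 4 printed Cyp2d genes 44.3 to 58.6%. Counted from the start, CAAAGNGCA began at -50 in Cyp2d9, -53 in Cyp2d10, -58 in Cyp2d26 and -113 in Cyp2d40. Windows of 250 bases before to 50 after the start were searched for 56 members and 27025 genes in all. TTTATAAGG was in these 4 members (7.14%) and 0.315% of all genes, and CAAAGNGCA in these 4 and Ces2e (8.93%) and 1.58% of all genes. Both motifs were taken from the 4 printed promoters, so their presence in those 4 was fixed beforehand and is no test. The AHR core GCGTG was in 14 of the 56 member windows and in 35.2% of all, the antioxidant core TGACNNNGC in 12.5 and 14.0%, the nuclear receptor motif AGGTCA in 14.3 and 18.1%, and the HNF4 motif CAAAGTCCA in 7.14 and 0.555% (Cyp2c65, Cyp2c68, Cyp2c69 and Sult1b1). No run of 9 letters matches both CAAAGNGCA and CAAAGTCCA. A match is a run of letters only.

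Of the 10 carboxylesterases, 6 were lower in cage A at an unadjusted p under 0.05 (7.61% of all genes). Ces2c had 202, 206, 239.7 and 207.5 TPM in KO-1, KO-8, WT-5 and WT-7 of cage A. In cage B it had 317, 313, 234 and 282 TPM in KO-4, KO-9, WT-2 and WT-11, and in cage C 366, 262 and 368 TPM in KO-3, WT-6 and WT-10. WT-2 fell inside the range of cage A and all other mice of cages B and C lay above it. The log2 difference was -0.53 ± 0.12 (limma, adjusted p = 0.139). Ces2b had 2.09, 1.22, 2.35 and 1.77 TPM in the mice of cage A in the same order, 3.43, 3.57, 2.09 and 3.04 TPM in those of cage B, and 3.84, 3.51 and 4.49 TPM in those of cage C, with a log2 difference of -0.76 ± 0.19 (limma, adjusted p = 0.153). Again WT-2 alone reached into cage A. Ces2a, Ces1b, Ces1e and Ces1g were the other 4, while Ces2e and Ces2g stood at -0.02 ± 0.13 and 0.03 ± 0.08.

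Of the remaining P450 genes, Cyp4f16 (-0.72 ± 0.24), Cyp4f14 (-0.59 ± 0.19), Cyp2c23 (-0.68 ± 0.25) and Cyp2s1 (-0.31 ± 0.11) were lower in cage A at an unadjusted p under 0.05. Cyp4f40, of the same cluster as Cyp4f14 and Cyp4f16 on chromosome 17, was higher, with 16.9 ± 1.72 TPM in cage A and 13.3 ± 2.35 TPM in cages B and C (mean ± SD over 4 and 7 mice). Cyp2c55, the most abundant P450 gene, had a difference of 0.19 ± 0.16. Nr1i2 was lower, with 21.5 ± 5.25 TPM in cage A and 28.5 ± 3.25 TPM in cages B and C, a log2 difference of -0.44 ± 0.15 (limma, adjusted p = 0.210), while Ahr and Abcb1a stood at 0.08 ± 0.17 and -0.45 ± 0.27.

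Of the conjugating enzymes, 1 of 20 Gst, 1 of 6 Sult and 2 of 5 Ugt genes were lower in cage A at an unadjusted p under 0.05 (7.61% of all genes), and 1 Gst gene was higher (9.83%). Ugt1a6a had 25.2, 22.5, 18.8 and 25.7 TPM in KO-1, KO-8, WT-5 and WT-7 of cage A. In cage B it had 40.6, 26.95, 40.3 and 38.9 TPM in KO-4, KO-9, WT-2 and WT-11, and in cage C 22.9, 32.8 and 36.9 TPM in KO-3, WT-6 and WT-10. KO-3 alone reached into the range of cage A, and the log2 difference was -0.51 ± 0.15 (limma, adjusted p = 0.172). The other lower ones were Ugt2b34 (-0.26 ± 0.09), Sult1b1 (-0.29 ± 0.10) and Gsta3 (-0.41 ± 0.14), and Gstk1 (0.51 ± 0.18) was higher. None of the 7 Gstm, 3 Gstt and 3 Gstp genes had an unadjusted p under 0.05, and the Gstm genes had a median log2 difference of -0.02, against -0.74 in the Cyp2d group and -0.44 over the 10 carboxylesterases.

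Beside this cage pattern, the summed colonocyte markers were 20720 to 22640 TPM in cage A, 18570 to 26870 TPM in cage B and 20370 to 27980 TPM in cage C. The smooth muscle markers, of which 6 of 9 passed the filter, summed to 2767 to 5167 TPM in cage A, 2806 to 4024 TPM in cage B and 2583 to 3794 TPM in cage C. Of the 13 colonocyte markers tested, 2 were lower in cage A at an unadjusted p under 0.05, the chloride exchanger Slc26a3 (-0.79 ± 0.22) and the carbonic anhydrase Car4 (-0.52 ± 0.17), and the list had a median of 0.02. Of the 7 fibroblast markers 6 had positive differences, with Col1a1 (0.41 ± 0.18) and Col1a2 (0.43 ± 0.15) at such a p, and so had 5 of 6 smooth muscle markers, with Actg2 (0.55 ± 0.20). All 4 immune markers tested had positive differences (Csf1r, 0.46 ± 0.18, at such a p), as had 7 of 8 goblet markers, none of them at such a p. So had 3 of 4 endothelial markers, none at such a p. Of 5 neuron and glia markers tested, 4 had negative differences, 1 of them at such a p. So had the 2 adipocyte markers tested, none at such a p. Over all genes 46.4% had negative differences, and at such a p 9.83% were higher and 7.61% lower. In bulk tissue, fewer epithelial cells and less RNA per cell cannot be told apart, and the part of these markers in the enzyme values was not tested. With mitochondrially encoded genes left out of the total, 22 members were lower in cage A and 2 higher at an unadjusted p under 0.05, where 667 of 10743 genes were lower and 1055 higher. In WT mice alone 9 members were lower and none higher, where 412 of 10756 genes were lower and 353 higher, and 6 of the 23 were among the 9.

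**Figure D5:**
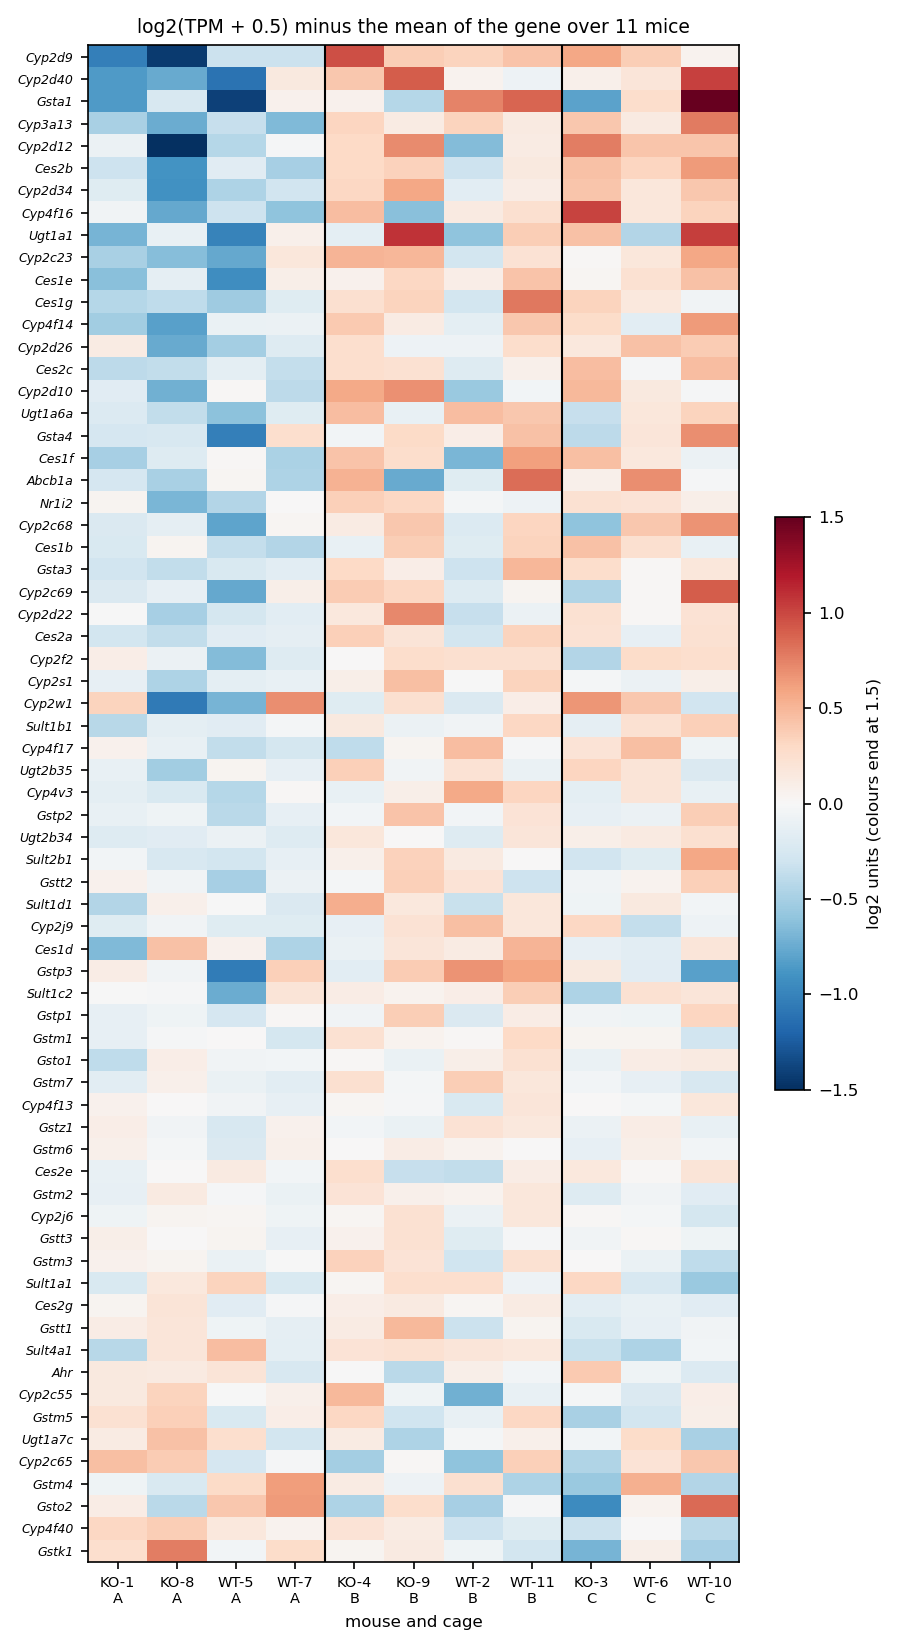
Colour shows log2(TPM + 0.5) of each of the 68 members (rows) minus its mean over the 11 mice (columns, grouped as cages A, B and C). Rows run from the most negative difference of cage A at the top, Cyp2d9 at -1.20, to the most positive at the bottom, Gstk1 at 0.51.

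Cage C against cage B compares cages that the Y-linked genes do not separate. None of the members passed an adjusted p of 0.05 (limma; 0% of all genes did), and 4 had an unadjusted p under 0.05, all of them lower in cage C, against 4.09% of all genes in either direction, 2.42% lower and 1.67% higher. Gstm2, of the mu class, had 94.9, 105 and 96.6 TPM in KO-3, WT-6 and WT-10 of cage C, against 125, 114.5, 113 and 122 TPM in KO-4, KO-9, WT-2 and WT-11 of cage B. The cages did not overlap, and the mice of cage A ran over 99.7 to 119 TPM, into the range of both. Gstm7 had 12.1, 11.3 and 10.4 TPM in the mice of cage C in the same order, against 14.8, 12.2, 16.2 and 14.0 TPM in those of cage B. Ces2g had 13.95, 14.5 and 13.9 TPM in those of cage C, against 16.8, 17.3, 16.0 and 17.0 TPM in those of cage B. For both the cages again did not overlap, and the fourth gene was Sult4a1. Cage C lay wholly below cage B in these 4 members and in 2.89% of all genes, and wholly above it in no member and 2.22% of all genes. The log2 difference was -0.26 ± 0.09 for Gstm2, -0.32 ± 0.13 for Gstm7, -0.23 ± 0.10 for Ces2g and -0.49 ± 0.22 for Sult4a1, each with an adjusted limma p of 1. The count was 2 without KO-3, 2 without KO-9 and 0 without WT-11, where the share of all genes was 2.85, 3.45 and 3.65%.

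Whether the genotype difference depended on cage was tested with an interaction term. No member passed an adjusted p of 0.05 (limma, smallest 0.946; 0.0186% of all genes did), and 4 had an unadjusted p under 0.05 (Cyp2d9, Cyp2f2, Cyp2d10 and Cyp2c68), against 3.97% of all genes. The log2 difference of KO from WT in Cyp2d9 was -0.91 among the mice of cage A, 0.29 among those of cage B and 0.37 among those of cage C. For Cyp2f2 it was 0.43, -0.10 and -0.70 in cages A, B and C. Cyp2f2 had 18.2 and 15.9 TPM in KO-1 and KO-8 and 10.6 and 14.8 TPM in WT-5 and WT-7 of cage A, so the KO mice were the higher ones there. In cage C KO-3 had 12.4 TPM, below the 20.6 and 20.4 TPM of WT-6 and WT-10, and in cage B all 4 mice lay within 17.1 to 20.6 TPM. The count was 10 without WT-7, 8 without KO-1 and 7 without WT-6, and the cause was not tested. The share of all genes was 4.66, 5.30 and 5.25% in these fits. Without KO-3 cage C holds no KO mouse, so the test compares the genotype difference of cages A and B only. The count was then 2, where the share of all genes was 3.32%.

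Other genes of the same pathways were compared in the same fits. Of 39 tested enzymes of oxidation, reduction and hydrolysis outside these families, 1 had an unadjusted p under 0.05 between genotypes, where 3.1% of all genes did. That gene was Fmo1, a flavin monooxygenase, with 7.99 ± 0.792 TPM in KO and 6.01 ± 1.49 TPM in WT mice (SD, n = 5 and 6). Xanthine dehydrogenase, Xdh, had 10.9 ± 2.41 TPM in KO and 13.5 ± 2.02 TPM in WT mice. Of 23 other conjugating and cofactor genes 2 had such a p, the Golgi sulfate donor transporter Slc35b3, lower in KO at -0.30 ± 0.12, and the glutathione synthesis subunit Gclm, higher at 0.25 ± 0.11. Of 15 transporters 2 did, both lower in KO, the peptide transporter Slc15a1 at -0.26 ± 0.10 and the nucleoside transporter Slc29a1 at -0.35 ± 0.16. None of 20 further regulators did (Rxrb, with -0.83 ± 0.39, and Ncor1, with 0.35 ± 0.23, came nearest). Rxrb was low, averaging 1.92 TPM in KO and 2.97 TPM in WT mice, and KO-3 stood at only 1.95e-05 TPM. Of 21 targets of the oxidant sensor NRF2, G6pdx, which feeds NADPH production, and Gclm did, both higher in KO. No gene of these lists passed the adjusted limma threshold.

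The same lists were compared between cage A and cages B and C. Of the 39 oxidation, reduction and hydrolysis enzymes, 8 were lower and 2 higher in cage A at an unadjusted p under 0.05 (7.61 and 9.83% of all genes), with a median log2 difference of -0.10. Among them were Fmo4, with 3.89 ± 1.46 TPM in cage A and 7.58 ± 1.29 TPM in cages B and C, and Maob, the monoamine oxidase, with 20.5 ± 1.12 TPM and 28.0 ± 3.81 TPM (SD, n = 4 and 7). Of the 23 conjugating and cofactor genes, 4 were lower and 1 higher. The arylamine acetyltransferase Nat2 had 13.0 ± 5.26 TPM in cage A and 25.4 ± 2.55 TPM in cages B and C, and Ugdh, which makes the glucuronic acid donor, 107 ± 8.54 TPM and 140.0 ± 19.9 TPM. Of the 15 transporters, 3 were lower and none higher, with Slc15a1 at 62.1 ± 8.82 TPM in cage A and 96.7 ± 14.95 TPM in cages B and C, and the prostaglandin transporter Slco2a1 at 13.1 ± 3.97 TPM and 20.1 ± 3.43 TPM. Of the 20 regulators, 3 were lower, among them the oxysterol receptor gene Nr1h3 at -0.33 ± 0.10, and 2 higher, among them Mafk, a partner of NRF2, at 1.01 ± 0.25. Mafk was uneven within cage A, at 21.3 to 64.3 TPM, against 14.7 to 17.95 TPM in cages B and C. Of the 21 NRF2 targets, 2 were higher and none lower, with Gpx2, a gut glutathione peroxidase, at 52.9 ± 11.7 TPM in cage A and 31.5 ± 6.08 TPM in cages B and C, while Txnrd1 stood at 0.19 ± 0.09.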

How the data were processed

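Per the labels, the libraries were stranded, made from mRNA and read from a single end over 75 nt. The submitters' processing notes name the tools CASAVA, kallisto and sleuth and the build mm10, with no version. The deposited table holds a TPM per transcript and mouse, for transcripts that APPRIS classes as principal. It adds the authors' p-value and q-value for KO against WT, a log2 ratio and a mean natural log of estimated counts, per the file headers. TPM keeps no depth, so the depth of each mouse is unknown and no counting interval is given.

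Of 29213 rows, 405 repeated a transcript and were dropped, and TPM was summed per gene. Genes at 1 TPM or more in at least 5 mice were tested on log2(TPM + 0.5) with limma 3.58.1 (R 4.3.3), whose variances followed a trend on the mean. This scale understates the change of low genes. Cage and genotype were terms, p was adjusted by Benjamini-Hochberg over all 10756 genes at a threshold of 0.05, and tests were two-sided. ± after a log2 difference is the standard error. Each mouse was 1 sample, and mice of a cage share it, so p-values measure only the spread between these mice. Coordinates are from GENCODE M21 (22241 of 22243 identifiers found), and promoters from RefSeq (56 of 68 members matched). The fit was tested on simulated data with known changes. At the adjusted threshold it recovered 67% of 2-fold and 93% of 4-fold changes in KO. For genes lowered in cage A it recovered 74 and 92%, so some 2-fold changes would be missed.

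The members and lists were chosen with earlier results of these data known. Values per mouse are given for the sensors, the pump and Cyp1a1, the 2 highest members of each family, and those with the smallest p (6 for genotype, 6 for cage, 3 for cage C against B, 2 for the interaction). Of each other list, the 2 genes with the smallest genotype p and the 2 with the smallest cage p are named. Other genes were chosen after their values were seen. Alternatives were the pseudocount, the filter, the scaling, the trend, subsets of mice, and each mouse left out.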

Additional observations from a re-analysis of the deposited data

Results flagged for a closer look

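Of 50 groups of 5 or 6 mice examined, 1 held a mouse far from the others. Ugt1a6a had 40.56 TPM in KO-4, where the other 4 KO mice had 22.5 to 26.95 TPM, so that the gap took 0.754 of the range of the group. Chance flags about 1 in 20 groups. WT-2 and WT-11, which shared cage B with KO-4, had 40.3 and 38.9 TPM, and nearly all windows of Ugt1a6a occur in another gene.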

How the results depend on the processing

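No paired analysis was possible because each mouse number belongs to a single mouse and the genotypes share none. Of 302 values of 15 named genes under other settings, 299 kept their direction and side of the threshold. Cyp3a13 passed in cage A against cages B and C in 2, with a pseudocount of 1 and with a filter of 5 TPM, giving 1 member past the adjusted p in each. Gsta1, KO against WT, turned to 0.12 with cage A only, and the cause was not tested. KO against WT, members at an unadjusted p under 0.05 numbered 1 with median-of-ratios factors, 3 without mitochondrial genes, 4 in cages A and B only, 2 in cage A only, 8 in cages B and C only and 2 by the authors' deposited p. The share of all genes at such a p was 6.42% in cages B and C only, 1.62% in cage A only and 2.78 to 3.12% in the other 3 fits. Of all transcripts with a deposited p, 2.24% were under 0.05. With WT mice only, the cage test gave 7 (5.40% of all genes), cage A against the others 9 (7.11%) and cage C against cage B 2 (3.71%). The median spread between cages was 49.3% in WT mice only, against 40.7% for all genes. Cage C against cage B gave 2 with median-of-ratios factors (4.07% of all genes) and 1 without mitochondrial genes (3.61%). Subsets hold fewer mice, and the cause of the other shifts was not tested. With each mouse left out, the unadjusted counts were 0 to 8 for KO against WT, 11 to 23 for cage, 21 to 28 for cage A against the others, 0 to 5 for cage C against cage B and 2 to 10 for the interaction, and the adjusted counts were 0 in all of them. Over all genes the shares in these fits were 2.55 to 5.74% for KO against WT and 8.31 to 14.6% for cage. They were 11.7 to 20.3% for cage A against the others and 2.85 to 4.80% for cage C against cage B. By the deposited mean log counts, Cyp4f17 stood at an estimated count of about 18.7 and a Gsto2 transcript at 4.64. The median over member transcripts was 364, and 12 of them stood under 50. The depth of each mouse is unknown, so no counting error per mouse is given.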
